A study of Danio rerio with 2 samples.

Results

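The genes described here encode the machinery of oxidative phosphorylation in zebrafish. They were chosen by name from the gene IDs of the deposited tables: nuclear genes named as subunits of complexes I, III, IV and V (NDUFA, NDUFB, NDUFC, NDUFS and NDUFV, UQCR, COX4 to COX8, and ATP5 names), and every gene of the mitochondrial genome (MT names). The choice gave 87 of 19955 gene IDs, of which 74 were nuclear and 13 mitochondrial. Complex I had 34 nuclear members, complex III 7, complex IV 14 and complex V 19, and 86 of the 87 were listed on both plates. Single cells came from the caudal hematopoietic tissue of wild-type larvae at 5 days post fertilization, a tissue in the tail where blood stem and progenitor cells expand. The labels describe a fluorescence sort for hematopoietic stem and progenitor cells, give a sort day of 6, and divide the wells of each 384-well plate into the classes double and single. The labels do not say which markers lie behind these classes, or whether the 2 plates held different animals, so the spread between plates may be technical. All groups share the wild-type genotype, age and tissue, and no treatment is listed.

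Oxidative phosphorylation passes electrons from NADH through complexes I, III and IV to oxygen, pumps protons across the inner mitochondrial membrane, and lets them return through complex V, the ATP synthase. Most subunits are encoded in the nucleus, made in the cytosol and imported, while a small core of complexes I, III, IV and V is encoded and translated inside the mitochondrion, so each of these complexes is built from transcripts of both genomes. Red cells of fish keep their nuclei and mitochondria, and developing red cells also use mitochondria to make heme. Neutrophils are known in mammals for few mitochondria and a strong reliance on glycolysis.

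Wells with at least 500 transcripts were used as cells: 189 double and 111 single cells on plate 20, and 186 and 89 on plate 21. These cells held 2836988 transcripts on plate 20, with a median of 7508 per cell, and 3037658 on plate 21, with a median of 8960. Blood genes were present: among cells with at most 5% globin transcripts, the progenitor factor MYB stood at 393 and 404 CPM on plates 20 and 21, and cd34 at 22.4 and 31.8. Muscle or epidermis genes gave over 5% of the transcripts in 15 of the 575 cells, and the deepest well, with 249815 transcripts, was among the globin-poor cells. Of the 15 cells, 2 were rich in muscle genes, and the deepest well was among these 2. It is thus left out both in results without the deepest well and in those without muscle- or epidermis-rich wells. Markers of those tissues, and results of the members without those wells, are given with each comparison.

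Transcripts were found for each of the 4 complexes and for the mitochondrial genome. A CEL-seq2 molecule is counted once at its 3′ end, so that levels are given in CPM, transcripts scaled to a library of common size, and not to gene length. In the mitochondrial genome, MT-CO2, a core subunit of complex IV, had the most transcripts, at 11000 CPM on plate 20 and 11100 on plate 21. In complex V it was ATP5F1B, the catalytic beta subunit, at 1560 and 1520 CPM, followed by atp5mc3b, a gene of the membrane ring, at 1400 and 1370. In complex IV it was COX5B (ENSDARG00000015978) at 730 and 716 CPM, in complex III UQCRQ at 472 and 457, and in complex I NDUFS7, an iron-sulfur subunit, at 210 and 187. Complex V alone held 0.955% and 0.972% of all transcripts, against 0.374% and 0.363% for the nuclear subunits of complex I. At the low end, 4 members had too few transcripts to be tested: COX4I2 with 24 over both plates, ndufv3 with 16, COX6A1 (ENSDARG00000054588) with 9 and cox4i1l with 2. Where copies of a subunit exist, 1 copy usually had most of the transcripts: COX4I1 at 656 and 622 CPM against 3.52 and 4.61 for COX4I2, cox6b2 at 487 and 513 against 24.0 and 22.7 for cox6b1, and COX7A2 at 214 and 194 against 21.9 and 15.8 for cox7a1. Near-identical copies can share reads, so the split between copies is uncertain. The genes of mt-atp8 and MT-ATP6, and of mt-nd4l and MT-ND4, overlap, and their counts may not be separable.

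The pooled nuclear share was 1.85% on plate 20 and 1.84% on plate 21. It was 1.86% and 1.84% in cells of the double class and 1.83% and 1.85% in those of the single class. Individual cells varied widely around these values, from 0.256% to 3.59% on plate 20 and from 0.289% to 3.6% on plate 21. The mitochondrial genome took 4.36% and 4.21% of transcripts, with 4.39% and 4.30% in the double class and 4.31% and 4.01% in the single class. Exact 95% binomial intervals of the pooled shares, which cover counting error only, were at most 0.0895 percentage points to either side for nuclear shares and 0.365 for mitochondrial shares.

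Across globin content the nuclear share was highest in the middle. Globin transcripts rise as red cells mature, and cells were divided at 1%, 5% and 10% of transcripts from 12 globin genes. The pooled nuclear share was 1.71% and 1.7% in cells with at most 1% globin, 2.09% and 2.12% at 1% to 5%, 1.80% and 1.86% at 5% to 10%, and 1.7% and 1.63% above 10%. Both plates of the 1% to 5% range lay above both plates of every other range. The median over cells moved further, from 1.29% and 1.27% at the lowest globin to 2.02% and 1.95% at 1% to 5%. In the lowest range the quartiles over cells ran from 0.939% to 2.02% on plate 20 and from 0.804% to 2.04% on plate 21, which is a wider spread than in cells above 10% globin, from 1.36% to 2.03% and from 1.28% to 1.96%. Globin itself fills part of each cell's total: with globin taken out of the total, the nuclear share above 10% globin was 2.0% and 1.9%. Depth moved with the nuclear share, with a Spearman coefficient over cells of 0.34 (n = 300) and 0.46 (n = 275), a description of cells that share a plate and a denominator. Among cells of 5000 to 15000 transcripts the shares were 1.54% and 1.59% at the lowest globin, 2.07% and 2.0% at 1% to 5%, 1.85% and 1.84% at 5% to 10%, and 1.67% and 1.62% above 10%.

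**Figure D1:**
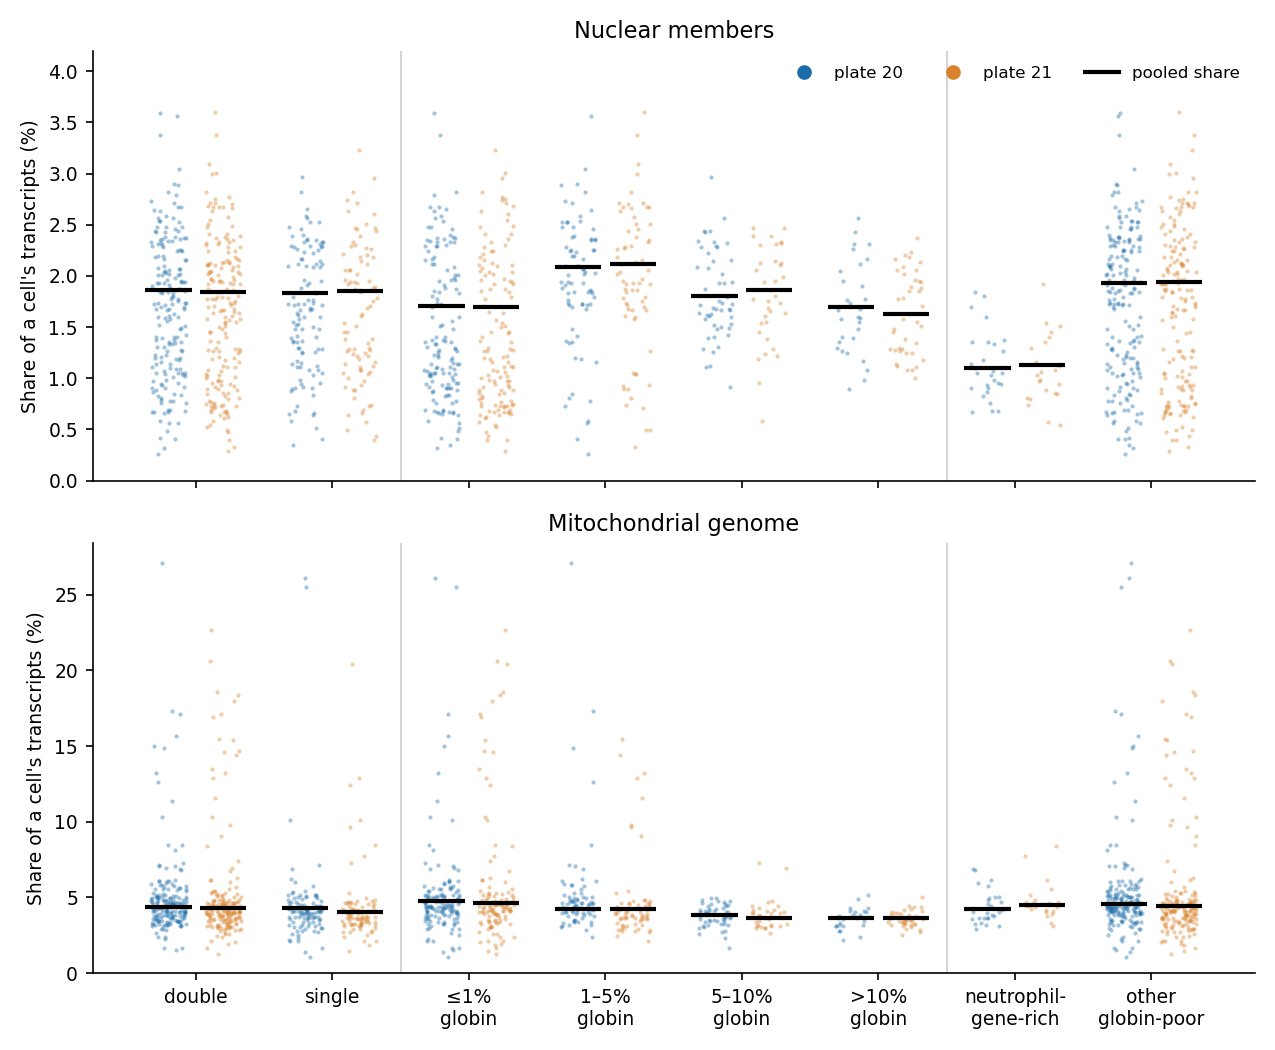
Share of each cell's transcripts from nuclear members (upper panel) and from the mitochondrial genome (lower panel), in percent, by sort class, globin range and neutrophil gene content. Points are cells, colored by plate, and black bars are pooled shares per plate; the nuclear bars are highest at 1–5% globin (2.09% and 2.12%) and lowest in neutrophil-gene-rich cells (1.1% and 1.13%).

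The mitochondrial genome showed another order. Its pooled share was 4.76% and 4.65% at the lowest globin, 4.27% and 4.21% at 1% to 5%, 3.82% and 3.65% at 5% to 10%, and 3.65% and 3.64% above 10%. Pooled values of the lowest range lay above all others on both plates, but medians over cells did not: they were 4.42% and 4.50% at the lowest globin and 4.55% and 3.94% at 1% to 5%. With globin taken out of the total, the pooled share was 4.78% and 4.68% at the lowest globin, 4.38% and 4.33% at 1% to 5%, 4.12% and 3.95% at 5% to 10%, and 4.3% and 4.23% above 10%. Wells with over 10% mitochondrial transcripts were found only at 5% globin or less: 13 cells on plate 20 and 21 on plate 21, of which 10 and 17 were double. They were shallow, with median depths of 2531 and 3234 transcripts, and their pooled nuclear share was 0.812% and 0.890%. Over all cells the Spearman coefficient between the nuclear and the mitochondrial share was 0.10 and -0.04, and it was 0.21 and 0.13 among cells with at most 10% mitochondrial transcripts.

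The first comparison asked whether the sort classes differ in these genes, and no member passed the test. Counts were summed per plate and class and tested with edgeR's quasi-likelihood test, Benjamini-Hochberg adjusted over all 8488 genes. None of the 83 members tested was called, and none of all genes was (0.0%), while 725 genes and 2 members had an unadjusted p under 0.05. DESeq2 called no member either, against 0.33% of all genes, and without muscle- or epidermis-rich wells edgeR called no member and 1.32% of all genes. The classes of plate 21 rest on an assumed reading of its layout along rows. Read down columns, no member was called, against 0.0357% of all genes. In that reading 12 of 13 mitochondrial genes had a log2 fold above 0 (median 0.12), against 10 along rows, and 2 had an unadjusted p under 0.05. Of all 8414 genes, 4137 were above 0 there. The median log2 fold of double over single was -0.01 for the 70 nuclear members, with 0.13 on plate 20 and -0.14 on plate 21, and 0.01 for all genes. Plates shared a sign for 19 of the 70, against 4734 of all 8488 genes, and gave opposite signs, or 0, for the rest. Of the 11 muscle list genes tested, none called, 0 shared a sign on both plates, and their median log2 folds were 3.94 and -4.8. Their pooled share was 2.46% in double and 0.321% in single cells on plate 20, but 0.0625% and 1.18% on plate 21. Over both classes it was 0.245% and 0.0664% in cells of 5000 to 15000 transcripts on plates 20 and 21, against 3.9% and 0.716% in cells over 15000. Without the deepest well, a log2 fold above 0 was found for 16 of 69 nuclear members and the median was -0.07, against 32 of 70 with it, and without muscle- or epidermis-rich wells it was found for 21 of 70, with a median of -0.04. With all wells, 4335 of all 8488 genes had a log2 fold above 0. The counts were 4059 of 8101 without the deepest well and 4004 of 8012 without muscle- or epidermis-rich wells. The member nearest to the threshold was UQCRFS1, the Rieske iron-sulfur protein of complex III, with 36.4 CPM in double and 23.5 in single cells on plate 20, and 30.0 and 16 on plate 21. The groups did not overlap, and the log2 fold was 0.76 ± 0.28 (SE) with an adjusted p of 0.566; without the deepest well it was 0.66 (adjusted p = 0.488). NDUFA8, an accessory subunit of complex I, stood at 121 against 91.9 on plate 20 and at 118 against 85.6 on plate 21 (adjusted p = 0.567). These were the 2 members with an unadjusted p under 0.05, and neither kept it without the deepest well or without muscle- or epidermis-rich wells. In the other direction, ndufa4b, NDUFA6, UQCRB and NDUFV2 were lower in double cells on both plates, with log2 folds of -0.83, -0.29, -0.29 and -0.24 and adjusted p-values between 0.689 and 0.776. NDUFA6 had a log2 fold of -0.41 without the deepest well (adjusted p = 0.408) and of -0.39 without muscle- or epidermis-rich wells (adjusted p = 0.325), and it was the 1 member with an unadjusted p under 0.05 in each of these settings. Among mitochondrial genes, MT-ND2 and MT-ND5 had log2 folds of 0.11 and 0.17 (adjusted p = 0.810 and 0.823). In simulated data for this comparison, edgeR recovered 10% of higher-count genes changed 2-fold and 78% of those changed 4-fold. Most differences of the smaller size were thus missed in those data, which had the same dispersion for every gene and no plate effect. In the measured data edgeR called no gene. That includes myhz2 of the muscle list (log2 fold 5.06 ± 0.28) and icn2 of the epidermis list (-5.43 ± 0.57), both with an adjusted p of 0.229. The fold of myhz2 rests on plate 20 alone, at 802 CPM in double and 23.5 in single cells, against 0.0 in both classes on plate 21. For icn2 the values were 1.68 against 63.5 on plate 20 and 0.0 against 12.6 on plate 21. How many 4-fold differences would be found in the measured data was not tested. Other cells moved with the sort class: all 8 neutrophil list genes were higher in double cells at an unadjusted p under 0.05 (median log2 fold 1.25), the 10 epidermis genes tested had a median of -1.52 and the 5 erythroid genes of -0.48, none called, and their part in the members' values was not tested.

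The second comparison set 158 globin-rich cells (over 5% globin, 81 and 77 on the plates) against 417 globin-poor cells, with globin genes taken out of the counts first. Of the 70 nuclear members tested 9 were higher and 2 lower, and of the 13 mitochondrial genes 5 were lower and none higher. Among all 8586 genes tested, 38.1% were called, 16.6% higher and 21.5% lower. The 15.7% of nuclear members called is below that 38.1%. The mitochondrial genes called were all lower, and their 38.5% is above the 21.5% of all genes called lower. The median log2 fold was 0.14 for nuclear members, -0.23 for mitochondrial genes and -0.02 for all genes. The direction was shared by both plates for 58 of the 70 nuclear members, against 6595 of all 8586 genes.

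Complex I, which takes electrons from NADH, had 5 of its 33 tested nuclear subunits higher in globin-rich cells and none lower. That share of 15.2% is below the 16.6% of all genes called higher. NDUFA6 stood at 149 CPM in globin-rich and 116 in globin-poor cells on plate 20, and at 180 against 103 on plate 21. Its groups did not overlap, and it was higher by 0.60 ± 0.15 (SE, log2, adjusted p = 0.000251). NDUFB6 stood at 129 against 90.1 and at 132 against 87.5, a log2 fold of 0.56 ± 0.16 (adjusted p = 0.0023). NDUFB1 and NDUFB9, accessory subunits of the membrane arm like NDUFB6, had log2 folds of 0.40 and 0.34 (adjusted p = 0.0319 and 0.0197), and NDUFB9 turned to -0.67 with cells thinned to 500 transcripts (adjusted p = 0.387). DESeq2 called none of the complex I genes. The fifth was ndufa4b, a low-count gene at 18.0 against 6.68 and 9.77 against 4.40 (log2 fold 1.3 ± 0.55, adjusted p = 0.0494), whose mammalian counterpart has also been assigned to complex IV. NDUFS7, with the most transcripts in the complex, had a log2 fold of 0.22 (adjusted p = 0.150). No subunit of complex III was called, and UQCRQ stood at 496 against 494 on plate 20 and at 507 against 476 on plate 21.

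Complex IV, which reduces oxygen, had 2 of 11 subunits higher, a share of 18.2% that is near the 16.6% of all genes. The second COX5B gene (ENSDARG00000068738) stood at 54.0 CPM in globin-rich and 17.2 in globin-poor cells on plate 20, and at 24.4 against 13.2 on plate 21. Both plates were separated between groups, although its plate folds of 1.60 and 0.84 (log2) differed, and the fitted log2 fold was 1.32 ± 0.33 (adjusted p = 0.000288). The deepest well, a globin-poor one, held 11.2% of this gene's transcripts. The other COX5B gene (ENSDARG00000015978), with far more transcripts, stood at 743 against 771 on plate 20 and at 763 against 758 on plate 21, with a log2 fold of -0.02. cox6b2 was the second subunit called, at 585 against 488 and 625 against 511 (log2 fold 0.28 ± 0.09, adjusted p = 0.00922). Its copy cox6b1 had a log2 fold of -0.77 ± 0.36 that did not pass (adjusted p = 0.0766), with 16.4 against 27.7 and 15.9 against 27.4.

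Complex V held the largest change among all members. ATP5MC3, 1 of 3 genes named for the c subunit of the proton-carrying ring, stood at 57.3 CPM in globin-rich and 143 in globin-poor cells on plate 20, and at 40.3 against 126 on plate 21. Both plates showed groups far apart, with a log2 fold of -1.48 ± 0.19 (adjusted p = 2.49e-13). Of the other c subunit genes, atp5mc3b stood at 1430 against 1470 on both plates (log2 fold -0.04, adjusted p = 0.732), and atp5mc1 was higher, at 727 against 583 and 769 against 652 (log2 fold 0.28 ± 0.09, adjusted p = 0.00514). In 2 muscle-rich wells ATP5MC3 stood at 313 CPM against 95.8 in wells not rich in muscle or epidermis genes, and without the muscle- or epidermis-rich wells its log2 fold was -1.3 (adjusted p = 2.85e-08). atp5md, a small subunit linked to dimers of the synthase, stood at 251 against 158 and 230 against 202 (log2 fold 0.41 ± 0.12, adjusted p = 0.00432). The inhibitor genes atp5if1a and atp5if1b encode proteins that block ATP hydrolysis by the synthase, and zebrafish atp5if1a is known for a part in heme synthesis. atp5if1b had a log2 fold of -0.33 ± 0.14 (adjusted p = 0.0483) and atp5if1a of -0.27 ± 0.12 (adjusted p = 0.078), and the call of atp5if1b was lost under 12 of the alternatives. The catalytic ATP5F1B stood at 1660 against 1630 on plate 20 and at 1810 against 1530 on plate 21, with a log2 fold of 0.14 (adjusted p = 0.120).

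**Figure D2:**
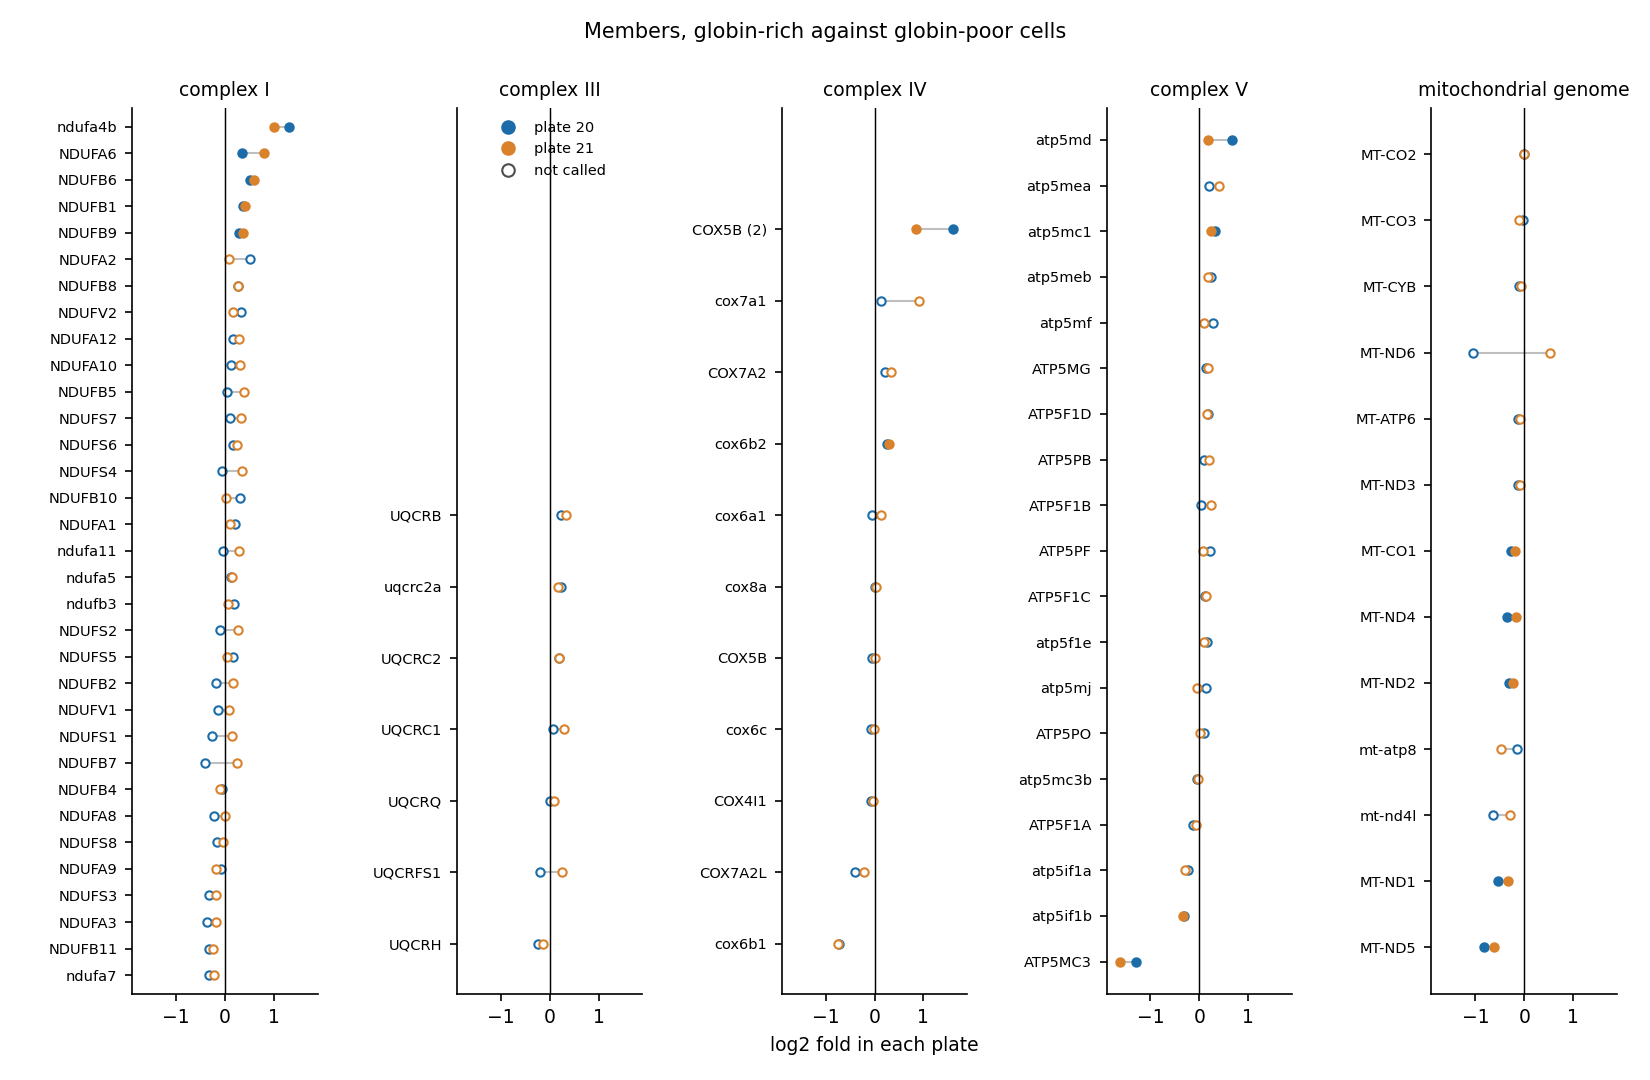
Log2 fold of each tested member in globin-rich over globin-poor cells, 1 panel per complex and 1 for the mitochondrial genome. Each point is 1 plate (log2 of CPM plus 1), filled where the edgeR adjusted p was under 0.05, and COX5B (2) is ENSDARG00000068738; ATP5MC3 lies at -1.3 and -1.62, and NDUFA6 at 0.36 and 0.80.

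In the mitochondrial genome, 12 of 13 genes had a log2 fold below 0, against 4377 of all 8586 genes. Of the 5 called genes, 4 encode subunits of complex I. MT-ND5 stood at 213 CPM in globin-rich and 379 in globin-poor cells on plate 20, and at 204 against 312 on plate 21 (log2 fold -0.72 ± 0.12, adjusted p = 7.73e-09). MT-ND1 stood at 922 against 1340 and at 954 against 1210 (log2 fold -0.44 ± 0.08, adjusted p = 2.36e-07). MT-ND2, MT-ND4 and MT-CO1 had log2 folds of -0.27, -0.26 and -0.23 and adjusted p-values of 0.000492, 0.000387 and 0.000352. For all 5 genes the globin-rich values lay below the globin-poor values on both plates. A direction shared by both plates was common, found for 6595 of all 8586 genes. MT-CO2 was not called and stood at 11500 in both groups on plate 20 and at 11800 and 11700 on plate 21. Without the wells over 10% mitochondrial transcripts, none of which was globin-rich, 2 of the 13 were called lower, against 20.7% of all genes, and the median log2 fold was -0.09.

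The counts in this comparison depend on the test, and the strata differ in other cells. DESeq2 called 0 nuclear members higher, against 3.77% of all genes, and 1 nuclear member, ATP5MC3, and 2 mitochondrial genes lower, against 6.57% of all genes. In globin-rich cells all 8 neutrophil, 11 muscle, 9 epidermis and 5 stroma list genes tested were lower, with pooled muscle shares of 0.258% and 0.0707% against 2.16% and 0.561%, and their part in the members' folds was not tested beyond the results without those wells. Between 1% to 5% and at most 1% globin, a comparison chosen after seeing the data, 64 of 69 nuclear members had a log2 fold above 0 with a median of 0.33, and edgeR called none of them, against 12.5% of all genes. Of all 7789 genes tested there, 3962 had a log2 fold above 0, with a median of 0.01.

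Genes that feed or build the machinery were counted in the same comparison, where 16.6% of all genes were higher and 21.5% lower. Glycolysis genes, which supply pyruvate, were lower in globin-rich cells in 11 of 15 tested and higher in none, with a median log2 fold of -1.76. GAPDH stood at 49.1 against 505 and 24.4 against 244 CPM (log2 fold -3.34), ENO3 had a log2 fold of -4.33 and ALDOA of -1.76. In the citric acid cycle 7 of 16 genes were lower and none higher, with MDH2 at -1.56 and IDH2 at -0.46. Of 63 mitochondrial ribosomal protein genes 18 were lower, a share of 28.6% that is above the background of 21.5%, and none higher. Their median was -0.46, and MRPL12 stood at 42.6 against 113 and 46.4 against 110. Of 25 assembly factor genes 4 were lower, a share of 16% that is below that background, among them COX10 at -0.87, an enzyme of heme A synthesis. No complex II gene of 5 was called, and of both genes on the cytochrome c list, cycsb was lower by a log2 fold of -0.41. The other, CYC1, encodes cytochrome c1 of complex III, is no member by name, and was not called (-0.26). Among carriers and pores, SLC25A4, an ADP/ATP carrier, was lower (-3.43) and VDAC2, a channel of the outer membrane, higher (0.49). SLC25A4 levels differed between plates: 31.1 against 340 CPM for plate 20, but 4.89 against 50.8 for plate 21. The pooled muscle share of globin-poor cells differed between plates too (2.16% and 0.561%). Genes of these lists were not tested without muscle- or epidermis-rich wells, so the part of such wells in their folds is unknown. Of 10 regulators 2 were higher and 2 lower, which is 40.0% called, against 38.1% of all genes. NRF1, a transcription factor for nuclear mitochondrial genes, was higher (0.66). LRPPRC, which binds mitochondrial messenger RNA, was lower (-1.05), as was pprc1 (-1.82).

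The third comparison set 51 neutrophil-gene-rich cells (over 1% of transcripts from neutrophil genes such as lyz, with at most 5% globin; 28 and 23 on the plates) against 366 other globin-poor cells, with globin and neutrophil list genes taken out. Both groups are part of the globin-poor cells of the second comparison. Nuclear members were called lower in every complex. Their pooled share was 1.1% and 1.13% in neutrophil-gene-rich cells, against 1.93% and 1.94% in the others. No cell of the first group exceeded 1.84% on plate 20 or 1.92% on plate 21, near the medians of 1.84% and 1.79% in the second. The second group includes the 1% to 5% globin range, where the nuclear share was highest. Its cells with at most 1% globin had pooled shares of 1.8% and 1.79%. Their medians over cells were 1.37% and 1.4%, against 1.05% and 1.03% in neutrophil-gene-rich cells, and their lower quartiles were 0.971% and 0.769%. The test called 42 of 70 nuclear members lower and none higher, which is 60.0%, against 38.0% of the 7802 genes tested, 20.3% lower and 17.7% higher. The median log2 fold was -0.87 for nuclear members and -0.33 for all genes, or -0.86 and -0.31 with genes listed at 0 in 1 group set to a bound from 3 counts. Of the 70, 68 had a log2 fold below 0, against 4549 of all 7802 genes. The sign was the same on both plates for 64 of the 70, against 6199 of all genes.

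In the ATP synthase 15 of 19 genes were lower, the highest share (78.9%) among the 4 complexes. Median log2 folds were alike in complexes V, I and III, at -0.92, -0.89 and -0.86, and -0.59 in complex IV. Complex V genes held more transcripts than those of complex I, and the part of this in the share called was not tested. ATP5F1B, the catalytic beta subunit, stood at 761 CPM in neutrophil-gene-rich and 1770 in other cells on plate 20, and at 833 against 1690 on plate 21, a log2 fold of -1.12 ± 0.17 (SE, adjusted p = 1.15e-08). ATP5F1A, the alpha subunit beside it, stood at 709 against 1460 and 690 against 1550 (-1.11 ± 0.18, adjusted p = 2.57e-08). The ring genes atp5mc1 and atp5mc3b had log2 folds of -1.20 ± 0.21 and -1.06 ± 0.17 (adjusted p = 3.08e-07 and 7.43e-08). The stalk genes ATP5PF and ATP5PB had log2 folds of -1.14 ± 0.24 and -1.01 ± 0.22 (adjusted p = 2.93e-05 and 4.79e-05). Groups did not overlap for any of these 6 genes, which were named for their small p-values. How many of all genes were free of overlap was not counted. The third ring gene, ATP5MC3, stood at 142 against 149 and 130 against 133 (log2 fold -0.05). Of the inhibitor genes, atp5if1a was lower (-1.08, adjusted p = 0.000566), and atp5if1b stood at 200 against 169 on plate 20 and 174 against 218 on plate 21.

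In complex I, 18 of 33 nuclear genes were lower and none higher. NDUFA8 stood at 32.2 CPM against 131 on plate 20 and at 24.9 against 127 on plate 21 (log2 fold -2.18 ± 0.44, adjusted p = 1.43e-05). NDUFA10 stood at 25.8 against 137 and at 31.1 against 116 (log2 fold -2.14 ± 0.44, adjusted p = 2.29e-05). Both were separated on each plate, as was NDUFS7, at 122 against 234 and 124 against 201 (-0.81 ± 0.28, adjusted p = 0.0131). ndufa4b had the highest log2 fold of the members, 1.27 ± 0.94, and did not pass (adjusted p = 0.285). In complex III 4 of 7 were lower, among them the core genes UQCRC1 (-1.05) and UQCRC2 (-0.90), and UQCRQ at 322 against 530 and 261 against 524 (-0.86, adjusted p = 0.000427).

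In complex IV 5 of 11 genes were lower. The abundant COX5B gene (ENSDARG00000015978) stood at 425 against 834 and 522 against 825 (-0.81 ± 0.19, adjusted p = 0.000187), and cox6a1 and cox6c had log2 folds of -0.84 and -0.59. cox7a1 and the second COX5B gene (ENSDARG00000068738) had no transcript in neutrophil-gene-rich cells on either plate. A floor for that group was set at 3 counts over its 315014 transcripts. With all wells kept, the level in the other cells was 2.02 times this floor for cox7a1 and 1.72 times for the second COX5B gene. Of the 74 and 63 transcripts of these genes in the other cells, the deepest well held 18 and 13. In wells not rich in muscle or epidermis genes, cox7a1 and the second COX5B gene stood at 16.5 and 17.9 CPM. They stood at 68.5 and 61.6 CPM in 2 muscle-rich wells, which include the deepest well. No ratio to the floor was taken without those wells, so a minimum fold was not established for either gene. Other subunits were not called: COX4I1, a regulatory subunit, stood at 638 against 731 and 621 against 709 (-0.19, adjusted p = 0.423), and cox8a at 606 against 563 and 485 against 544 (-0.03, adjusted p = 0.930).

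**Figure D3:**
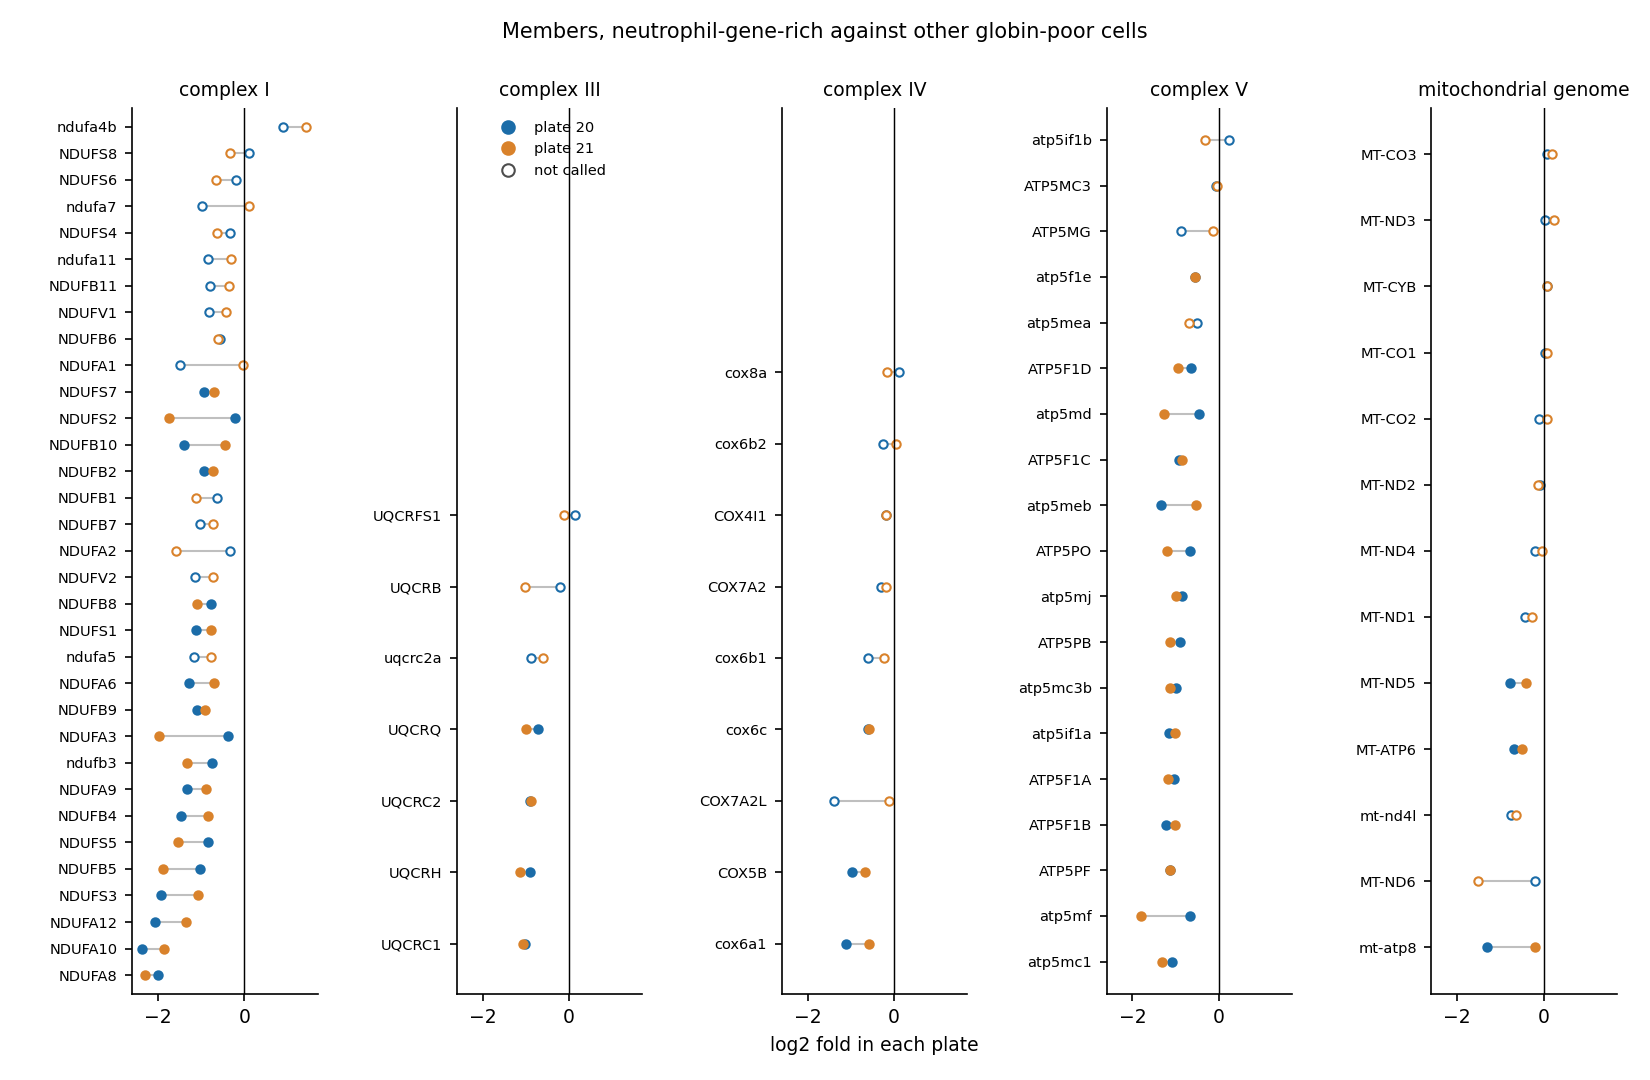
Log2 fold of each tested member in neutrophil-gene-rich over other globin-poor cells, 1 panel per complex and 1 for the mitochondrial genome. Each point is 1 plate (log2 of CPM plus 1), filled where the edgeR adjusted p was under 0.05; cox7a1 and the COX5B gene at 0 are left out. ATP5F1B lies at -1.22 and -1.02, while MT-CO2 lies at -0.10 and 0.08.

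The pooled mitochondrial share was 4.24% and 4.50% in neutrophil-gene-rich cells against 4.57% and 4.47%, and the plates overlapped. Of 13 genes 3 were lower and none higher, with a median log2 fold of -0.12. That share of 23.1% is near the 20.3% of all genes called lower. MT-ATP6, a subunit of complex V, stood at 4540 against 7270 on plate 20 and at 4850 against 6900 on plate 21 (-0.59 ± 0.16, adjusted p = 0.00148). mt-atp8, which overlaps it, had a log2 fold of -0.81 (adjusted p = 0.0468) and MT-ND5 of -0.59 (adjusted p = 0.0304). MT-CO2, MT-CO3, MT-CYB and MT-ND3 had log2 folds of -0.01, 0.14, 0.08 and 0.13, and their adjusted p-values ran from 0.527 to 0.975. Mitochondrial transcripts per nuclear member transcript were 2.69 and 2.61 in cells with at most 1% globin that were not neutrophil-gene-rich. They were 3.84 and 3.99 in neutrophil-gene-rich cells, against 2.36 and 2.30 in all the other globin-poor cells. By complex, this ratio was 3.33 and 3.42 against 2.01 and 1.99 for complex I, 5.93 and 6.45 against 3.20 and 3.11 for complex III, and 9.31 and 9.20 against 6.57 and 6.77 for complex IV. For complex V, where both genomes' genes were lower, it was 0.814 and 0.863 against 0.697 and 0.625.

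**Figure D4:**
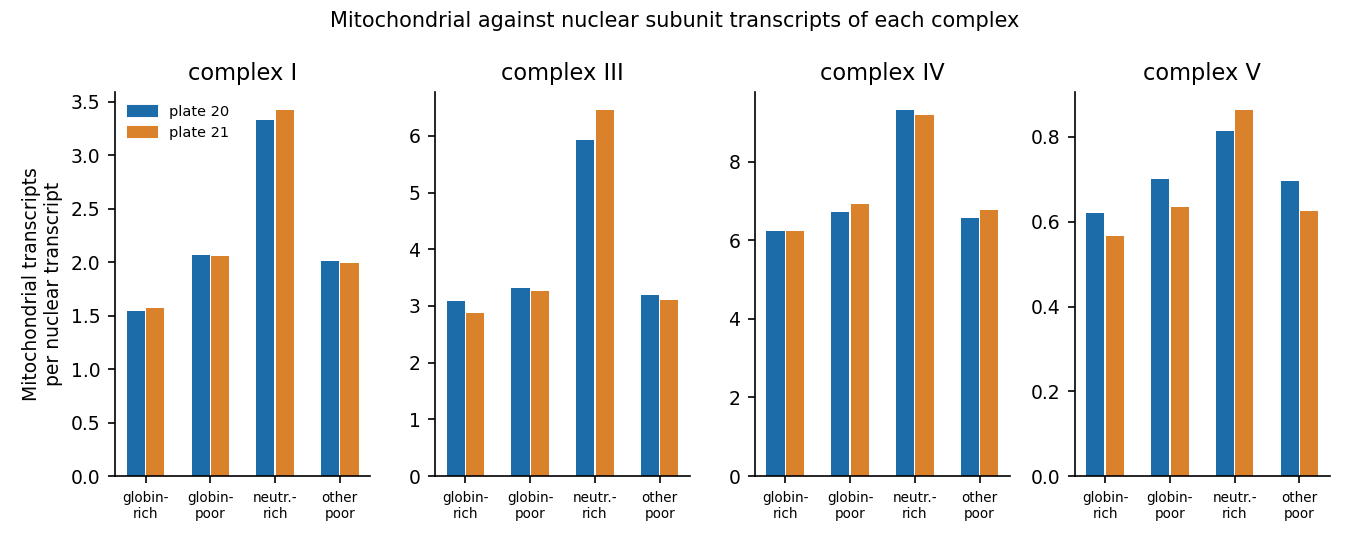
Mitochondrial transcripts per nuclear member transcript of the same complex (linear axis from 0, no replicate error beyond the 2 plates), in globin-rich, globin-poor, neutrophil-gene-rich (neutr.-rich) and other globin-poor (other poor) cells. Bars are pooled values of plate 20 and plate 21; for complex III the neutrophil-gene-rich bars reach 5.93 and 6.45 against 3.20 and 3.11.

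Depth and other cells move with this comparison too. Median depth was 5167 and 6710 transcripts in neutrophil-gene-rich cells and 7844 and 8935 in the others, of which 13 and 21 had over 10% mitochondrial transcripts against 0 and 0. Among cells of 3000 to 10000 transcripts, a window chosen after seeing the data, the nuclear share was 1.1% and 1.1% against 1.66% and 1.73%, and 25 of 64 nuclear members were lower and none higher, against 23.2% of all 3375 genes tested there lower (783, with 799 higher). In that window 6 mitochondrial genes were lower, and the pooled mitochondrial share was 4.42% and 4.82% against 5.25% and 5.4%. Medians over cells overlapped, at 4.04% and 4.56% against 4.59% and 4.42%. The mitochondrial to nuclear ratio was 4.04 and 4.40 against 3.16 and 3.12, with overlapping values for complex V (0.858 and 0.837 against 0.862 and 0.826). With cells thinned to 500 transcripts, 22 nuclear members were left to test and 2 were called lower (9.09%). That is a lower share than the 116 of all 661 genes. The nuclear median log2 fold was then -0.59, against -0.19 for all genes. With all transcripts kept, DESeq2 called 16 nuclear members lower, which is 22.9%, against 6.23% of all genes. Without the deepest well edgeR called 32 lower, which is 45.7%, against 16.5% of all genes. All 10 muscle list genes and 7 of 10 epidermis list genes tested were lower in neutrophil-gene-rich cells. The other 3 epidermis genes had a log2 fold above 0, and 2 of them were called higher. Without muscle- or epidermis-rich wells 41 nuclear members were lower, against 21.1% of all genes. All 5 erythroid list genes tested were called lower as well. All 4 progenitor list genes tested had a log2 fold below 0, and 3 of them were called lower. The part of cells with the genes of these lists in the members' folds was not tested beyond the results without muscle- or epidermis-rich wells.

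The lists of related genes were counted here as well, against 17.7% of all genes higher and 20.3% lower. Glycolysis genes were higher in 10 of 16 tested and lower in 2, with a median log2 fold of 1.85. GPI stood at 658 CPM against 67.2 and at 671 against 64.8 (log2 fold 3.33), GAPDHS had a log2 fold of 2.21 and ENO3 of 2.08. Mitochondrial ribosomal protein genes were lower in 33 of 62 and higher in none, with a median of -1.74, or -1.71 with the 2 genes at 0 set to their bound, and MRPL12 stood at 6.45 against 127 and 18.6 against 125. In the citric acid cycle 6 of 16 were lower and none higher, led by DLST (-1.43), SUCLG2 (-2.17) and DLD (-1.21). Of 4 complex II genes 2 were lower, SDHA by a log2 fold of -1.51 and SDHD of -1.38, and cycsb was lower at -0.82, while CYC1 was not called (-0.49). Of 6 carriers and pores 5 were lower, SLC25A4 at -5.09, VDAC2 at -1.14 and SLC25A3, the phosphate carrier, at -0.57. SLC25A4 again differed between plates: 12.9 against 383 CPM for plate 20, but 0.0 against 58.6 for plate 21. The pooled muscle share of the other globin-poor cells was 2.31% and 0.607%. Here as well, genes of these lists were not tested without muscle- or epidermis-rich wells. Of 10 regulators 1 was higher and 2 lower, which is 30.0% called, against 38.0% of all genes. TFAM, which packs and transcribes mitochondrial DNA, was lower, at 6.45 against 67.7 and 12.4 against 79.4 (-2.94). The gene pprc1 was lower too (-2.46), and 1 gene named YY1 (ENSDARG00000042796) was higher (0.93). Of 23 assembly factors 4 were lower, a share of 17.4% that is below the background, and none higher, among them atpaf1 (-3.28), which helps build the catalytic head of the synthase.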

How the data were processed

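CEL-seq2 libraries were made from 2 plates, sequenced, and aligned; the submitters' processing notes name BWA and Zv9. The BWA version, counting tool, strand setting and filters were not given in those sources. The authors deposited expected counts per gene and well: 100.0% of 1273614 values above 0 matched whole molecular identifier counts corrected for reuse of 4096 identifiers, within 0.01. Sort classes came from the deposited layouts, whose well entries are of another kind than counts; plate 21's listed no well numbers, so reading along rows was assumed. Both plates use the same 384 well numbers, so wells were kept apart by plate. No column of values was left unmapped.

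Of the gene IDs, 78.9% were paired with a name, often a human one, and these held 81.5% of transcripts. No genome or sequence table of the build was used here, so no coordinates or sequences are given. The members and lists were chosen with earlier results of these data known. Wells with 500 or more transcripts were kept, values were summed per plate and group and rounded, and edgeR 4.0.16 (TMM, filterByExpr, plate as covariate, 4 sums with 1 residual degree of freedom) tested all genes, two-sided, with Benjamini-Hochberg adjustment at 0.05; with 2 plates, precision rests mostly on the spread shared over genes. DESeq2 1.42.0 was an alternative. CPM values are TMM-scaled in comparisons, and plate folds add 1 CPM. Doublets were not called. The cuts of 5% globin and 1% neutrophil transcripts define ranges, not cell types: 49 of 575 cells lay at 4% to 6% globin and 8 at 0.5% to 2% neutrophil transcripts. Named genes were the called members (up to 8 per direction), the 4 smallest p-values per direction, the member with most transcripts per complex, and up to 3 per other list; other members named were chosen after their values were seen. Separation of groups was described for named genes only, and its share among all genes was not counted. Tested on simulated data, edgeR recovered 94% and 100% of genes changed 2-fold and 4-fold between globin groups (8586 genes), and 17% and 86% between neutrophil groups (7802 genes). In all simulations the changed genes were drawn from those with higher counts, every gene had the same dispersion, and no plate effect was added. Recovery of low-count members was not tested.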

Additional observations from a re-analysis of the deposited data

Results flagged for a closer look

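Wells of undefined sort class belong to no comparison, yet held members' transcripts. The 7 such wells with at least 500 transcripts on plate 20 had pooled shares of 1.49% nuclear and 2.64% mitochondrial transcripts. The 9 on plate 21 had 1.83% nuclear and 6.77% mitochondrial transcripts. Neither share was tested against the sorted classes.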

How the results depend on the processing

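Alternatives were the settings named here plus 250 or 1000 transcripts per cell, DESeq2 size factors, whole identifier counts and marker genes kept. Whole identifier counts, results without wells over 10% mitochondrial transcripts, the windows of depth, the 1% to 5% globin comparison and the comparison without neutrophil-gene-rich cells were chosen after seeing the data. Where no reason is given, the cause was not tested. Leaving out a plate leaves no residual degree of freedom, so only medians and ratios have a value there; with the mitochondrial genome left out its genes have none.

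Plate was the replicate block. In the globin comparison, fits without the block called 3 nuclear members higher, 1 lower and 2 mitochondrial genes lower, and in the neutrophil comparison 1 mitochondrial gene lower. Of all 8586 genes in the globin comparison, that fit called 1006 higher and 1494 lower. Of all 7802 in the neutrophil comparison, it called 1407 lower.

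In the globin comparison, the 9 nuclear members called higher became 0 with DESeq2, 0 with cells thinned to 500 transcripts (803 genes left to test), 2 at a 10% globin cut, 14 for over 5% against at most 1% globin, and 0 for 1% to 5% against at most 1%. Of all genes, the 1428 of 8586 called higher became 324 with DESeq2, 102 of 803 when thinned and 586 of 8403 at a 10% cut. They became 1378 of 7734 for over 5% against at most 1%, and 159 of 7789 for 1% to 5%. The 2 called lower became 1 with DESeq2, with no filter, without the largest well, with whole identifier counts, without wells over 10% mitochondrial, with globin genes kept and for over 5% against at most 1%, 0 when thinned and for 1% to 5%, and 4 without neutrophil-gene-rich cells. The nuclear median of 0.14 became 0.10 with no filter or at a 10% cut, 0.00 when thinned, 0.18 without the largest well, 0.17 without muscle- or epidermis-rich wells, 0.26 for over 5% against at most 1%, 0.33 for 1% to 5%, 0.07 without neutrophil-gene-rich cells and 0.20 at 5000 to 15000 transcripts, and ran from 0.10 to 0.14 with a plate left out. The 5 mitochondrial genes lower became 2 with DESeq2, at a 10% cut and without wells over 10% mitochondrial, 10 when thinned and 0 for 1% to 5%. Their median of -0.23 became -0.69 when thinned, -0.09 without wells over 10% mitochondrial and -0.14 at a 10% cut. Of all genes, the 1847 of 8586 called lower became 564 with DESeq2, 160 of 803 when thinned and 980 of 8403 at a 10% cut. They became 1832 of 7734 for over 5% against at most 1%, and 812 of 7789 for 1% to 5%. Without wells over 10% mitochondrial they were 1765 of 8525, and without neutrophil-gene-rich cells 1550 of 8258.

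In the neutrophil comparison, where 1586 of all 7802 genes were lower, the 42 nuclear members lower became 16 with DESeq2 (486 of all genes). They became 2 of 22 tested when thinned (116 of the 661 genes left) and 25 of 64 at 3000 to 10000 transcripts (783 of 3375). Their median of -0.87 became -1.15 with no filter, -0.59 when thinned, -0.81 without the largest well and -0.80 at 3000 to 10000, and ran from -0.88 to -0.81 with a plate left out. The 3 mitochondrial genes lower became 1 with DESeq2, without the largest well (1262 of all 7634 genes lower), without wells over 10% mitochondrial (1534 of 7746) and at a 0.5% neutrophil cut (1504 of 7890), and 6 at 3000 to 10000. Their median of -0.12 became -0.40 with no filter, -0.27 when thinned, -0.01 without wells over 10% mitochondrial, -0.19 at a 2% cut and -0.38 at 3000 to 10000, and ran from -0.20 to -0.12 with a plate left out. In the sort class comparison no count of members called moved. The mitochondrial median of 0.06 became 0.19 when thinned and 0.12 with the plate 21 layout read down columns. It became 0.02 without the largest well and 0.0 without muscle- or epidermis-rich wells. The nuclear median of -0.01 became -0.07 and -0.04 in the last 2 settings.

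For log2 ratios of pooled shares, the nuclear ratio of double to single, 0.01, became -0.03 with globin out of the total, -0.02 with globin and mitochondrial genes out and 0.03 as a median over cells. The nuclear ratio of globin-rich to globin-poor, -0.09, became 0.04, 0.04 and 0.02 in these settings and -0.10 without muscle- or epidermis-rich wells. The nuclear neutrophil ratio, -0.80, became -0.82 with globin and mitochondrial genes out and -0.82 without muscle- or epidermis-rich wells. The mitochondrial ratio of double to single, 0.06, became 0.13 as a median over cells, and that of globin-rich to globin-poor, -0.28, became -0.15 with globin out, -0.34 without muscle- or epidermis-rich wells and -0.25 as a median.

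The named genes turned sign in these settings. In the sort class comparison NDUFS7 became 0.01 with no filter, 0.05 with the plate 21 layout read down columns and 0.15 without cells over 5% globin, UQCRQ 0.30 when thinned, and COX5B (ENSDARG00000015978) 0.01 with no filter and 0.07 with the other layout. In the globin comparison, thinning gave -0.11 for NDUFS7, -0.22 for UQCRQ, -0.67 for NDUFB9 and 0.20 for COX5B (ENSDARG00000015978). UQCRQ was -0.01 without neutrophil-gene-rich cells, and COX5B was 0.03 without the largest well, 0.01 at a 10% cut, 0.11 for over 5% against at most 1% and 0.31 for 1% to 5%. In the neutrophil comparison MT-CO2 became 0.02 with whole identifier counts, 0.11 without wells over 10% mitochondrial and 0.01 at a 0.5% cut. MT-CO3 became -0.15 with no filter, -0.19 when thinned and -0.30 at 3000 to 10000, MT-ND3 -0.16 with no filter and -0.21 at 3000 to 10000, and MT-CYB -0.21, -0.10, -0.01 and -0.11 with no filter, when thinned, at a 2% cut and at 3000 to 10000.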

Other observations

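Double and single wells under 500 transcripts, 75 on plate 20 and 97 on plate 21, held pooled nuclear shares of 1.67% and 1.59% and mitochondrial shares of 5.82% and 5.36%. Within the globin-rich cells, the pooled nuclear share was 1.84% and 1.81% for the double class and 1.69% and 1.69% for the single class. Within the globin-poor cells it was 1.86% and 1.85% for the double class and 1.89% and 1.97% for the single class. These splits were looked at after seeing the data and were not tested.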
